A study of Homo sapiens with 2 samples.

Results

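The DNA glycosylases of base excision repair were examined in wild-type MHH-ES-1 cells and in radiation-adapted MHH-ES-1 cells. The genes taken were SMUG1, UNG, TDG, OGG1, MUTYH, NTHL1, NEIL1, NEIL2, NEIL3 and MPG. These 10 were chosen by name, with earlier results of these data known. They leave out a further glycosylase gene, MBD4, which is described with the rest of the pathway. All 19 probes that the platform annotation assigns to the 10 genes were used, out of 20046 named genes and 47323 probes. MHH-ES-1 is an established human Ewing sarcoma cell line, and the adapted cells are a derivative of it whose short description carries 4 Gy. The sources used here give neither the way that dose was delivered nor its time before RNA extraction, nor whether the adapted cells are a clone or a mixed population. Total RNA of each line was amplified into biotin-labelled cRNA and read on 1 Illumina bead array, so each group had 1 sample. No replicate spread, p-value or standard error can be given for any difference, and every value describes these 2 RNA samples. In bulk RNA, fewer cells of a kind and less RNA per cell cannot be told apart.

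Base excision repair removes small chemical changes of single bases, including the oxidized bases that ionizing radiation leaves in DNA. A glycosylase recognizes the damaged base and cuts the bond that holds it to the sugar. APEX1, the main abasic site endonuclease, then opens the strand, and polymerase beta with the XRCC1 and LIG3 pair, or a longer patch made with PCNA, FEN1 and LIG1, closes the gap. SMUG1, UNG and TDG act mainly on uracil and related pyrimidines. OGG1 removes 8-oxoguanine, and MUTYH removes the adenine mispaired with it. NTHL1 and the NEIL enzymes act on oxidized pyrimidines and ring-opened purines, and MPG acts on alkylated purines.

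The glycosylase RNAs differed between the lines in both directions. A probe was called detected where its detection p-value, which sets it against the negative controls of its own array, was under 0.01. By that rule 9 of the 10 genes were detected, each on both arrays, and MPG on neither. SMUG1, NTHL1, NEIL3 and OGG1 were at least 2-fold lower in the radiation-adapted cells, and 0 of the 9 detected genes were at least 2-fold higher. MBD4, outside the 10, was 3.44-fold higher. UNG was lower by less than 2-fold, MUTYH and NEIL2 were higher by less than 2-fold, and NEIL1 and TDG differed little. Of all 11352 detected genes, 10.3% passed 2-fold downwards, 12.4% upwards and 22.6% in either direction, and 50.6% lay below 0. These shares also belong beside the counts of neighbours and listed genes given below. For the glycosylases, 4 of 9 stand beside 10.3% of genes. The median log2 ratio (radiation-adapted minus wild type, normalized intensity) of these 9 was -0.80, where the median of all detected genes was -0.01. This median leaves out MBD4, whose log2 ratio was 1.78. The list was also chosen with earlier results of these data known. With so few genes and no replicates, these counts describe the list and are no test of it.

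**Figure D1:**
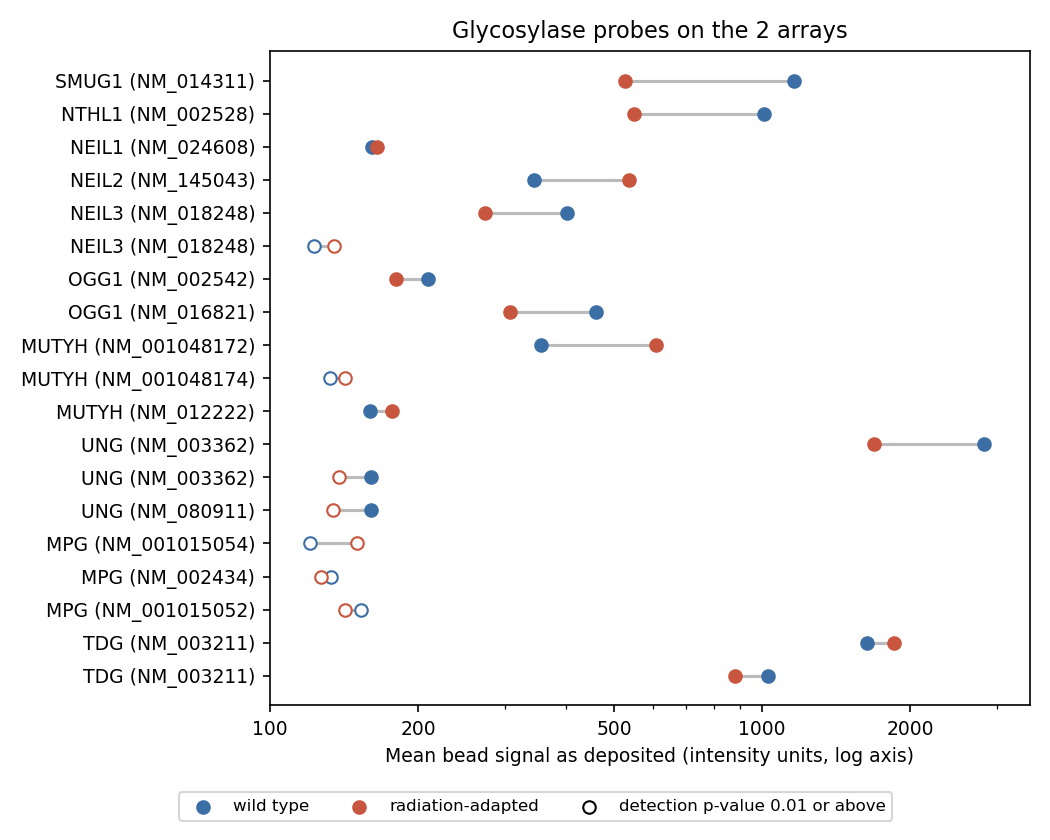
Mean bead signal of each of the 19 glycosylase probes (horizontal log axis, intensity units as deposited) on the wild-type array (blue) and the radiation-adapted array (red), with the annotated RefSeq transcript beside each gene. Filled points had a detection p-value under 0.01. SMUG1, NTHL1, OGG1, the brighter NEIL3 probe and the UNG probes lie lower in the radiation-adapted sample, and the MPG probes are open on both arrays.

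The 300-base promoter windows of the 3 lower genes for which a window was given are printed first, with that of TDG, whose RNA differed little, for comparison. They come from RefSeq (build GRCh38.p14), run from 250 bases before to 50 bases after a gene start, and lie at chr16:2047785-2048084 (minus strand), chr3:9749702-9750001 (plus strand), chr4:177309624-177309923 (plus strand) and chr12:103965622-103965921 (plus strand). Windows matched 8 of the 10 genes, with 13 windows in all; SMUG1 and NEIL2 were not matched. Capitals mark exact matches, on either strand, to 6 motifs chosen after the sequences were seen: CCGGAAGT for ETS factors, CACGTG for the E-box, GGGCGG for the GC box, CCAAT for the CCAAT box, TTTGAA for the cell cycle element CHR, and TTTGGCGC for E2F. No marked match overlaps a match to another motif in these windows.
NTHL1: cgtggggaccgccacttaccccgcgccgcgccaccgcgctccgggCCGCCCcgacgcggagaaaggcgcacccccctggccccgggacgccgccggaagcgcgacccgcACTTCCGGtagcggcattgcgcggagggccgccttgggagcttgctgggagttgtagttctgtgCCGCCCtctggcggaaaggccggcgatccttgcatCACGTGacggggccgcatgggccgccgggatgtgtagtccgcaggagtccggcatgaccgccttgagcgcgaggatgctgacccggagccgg
OGG1: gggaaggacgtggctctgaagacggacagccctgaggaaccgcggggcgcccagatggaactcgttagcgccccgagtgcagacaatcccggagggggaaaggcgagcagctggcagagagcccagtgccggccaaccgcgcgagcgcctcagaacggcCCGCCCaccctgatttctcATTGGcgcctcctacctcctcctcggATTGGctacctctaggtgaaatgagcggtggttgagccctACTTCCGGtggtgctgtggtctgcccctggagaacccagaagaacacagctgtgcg
NEIL3: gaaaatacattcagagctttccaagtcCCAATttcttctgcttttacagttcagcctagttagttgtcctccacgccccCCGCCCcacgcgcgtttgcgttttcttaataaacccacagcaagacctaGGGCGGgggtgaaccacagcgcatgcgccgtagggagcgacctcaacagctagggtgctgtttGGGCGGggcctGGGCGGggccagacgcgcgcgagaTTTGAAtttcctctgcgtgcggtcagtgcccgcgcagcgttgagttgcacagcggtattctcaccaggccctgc
TDG: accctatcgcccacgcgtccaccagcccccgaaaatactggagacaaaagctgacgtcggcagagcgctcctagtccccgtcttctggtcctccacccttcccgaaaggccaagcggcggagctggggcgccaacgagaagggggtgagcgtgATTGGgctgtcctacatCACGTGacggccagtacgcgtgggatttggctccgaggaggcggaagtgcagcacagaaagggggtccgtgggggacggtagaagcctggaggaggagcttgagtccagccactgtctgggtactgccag

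The ETS motif, bound by the family of factors to which FLI1 belongs, was found in the windows of NTHL1 (from base -141 relative to the gene start) and OGG1 (from base -6), and in those of no other matched glycosylase. Of all 35116 windows of the same length, 4.14% held it. The E-box was found in 4 of the 13 glycosylase windows, among them those of NTHL1 (from base -42) and TDG (from base -80), against 7.26% of all windows. NTHL1 and TDG had log2 ratios of -1.25 and 0.13. NEIL3 carried 4 GC boxes and, from base -24, the CHR letters. These also stood in a window each of UNG and MUTYH, so in 3 of the 13 glycosylase windows, and in 15.2% of all windows. GC boxes stood in 10 of the 13 glycosylase windows (some windows of 1 gene overlap) and in 45.0% of all windows, CCAAT in 9 of the 13 and 34.6% of all windows, and the E2F letters in 0 glycosylase windows and 0.652% of all windows. A match is a description of letters and not of binding, and the array says nothing of which start was used.

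Of the enzymes acting on uracil, SMUG1 had the lowest ratio of all the glycosylases. SMUG1 removes uracil and 5-hydroxymethyluracil from single- and double-stranded DNA. Its single probe read 1159.0 intensity units in the wild type and 527.2 in the radiation-adapted cells. After background correction and quantile normalization the log2 levels were 10.09 and 8.56, a 2.89-fold lower value. Throughout, signals are printed as deposited, with background included. Folds and log2 ratios come from the corrected and normalized levels, unless another setting is named, and are not ratios of the printed signals. Of all detected genes, 4.40% had a ratio as low or lower. Since SMUG1 has 1 probe on the array, its ratio could not be compared with that of another probe.

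UNG encodes the main uracil glycosylase, made as a mitochondrial form (UNG1) and a nuclear form (UNG2) from different starts. Its brighter probe, annotated to the UNG1 transcript, read 2826.1 units in the wild type and 1691.0 in the radiation-adapted cells. After normalization this probe was 1.74-fold lower (log2 ratio -0.80). The probe annotated to UNG2 read 160.4 and 134.5, and the other UNG1 probe 160.6 and 138.4. Both were detected in the wild type and not well above background in the radiation-adapted cells, so their differences are bounds, at least 1.24-fold and at least 1.25-fold lower. All 3 probes therefore read lower in the radiation-adapted sample. No difference between the forms can be read from them, because the UNG2 value has only a bound and an annotated transcript does not show that a probe matches that form alone.

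TDG removes thymine mispaired with guanine and the oxidized forms of methylcytosine made by TET enzymes. Its probes went opposite ways. The brighter one read 1634.1 units in the wild type and 1855.4 in the radiation-adapted cells (log2 ratio 0.13), and the other 1026.0 and 879.3 (log2 ratio -0.42). The gene thus has no settled direction. For genes in general, spread between probes was taken over 2269 genes that have more than 1 probe measured on both arrays. The SD of single probes about the mean of their gene was 0.45 in the log2 ratio. It leaves out everything that differs between cultures.

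The enzymes of the 8-oxoguanine pathway lay on opposite sides of 0. OGG1, which excises 8-oxoguanine paired with cytosine, was lower at both of its probes. The probe annotated to the type 2a transcript read 458.8 units in the wild type and 307.7 in the radiation-adapted cells (2.20-fold lower after normalization, log2 ratio -1.14). The probe annotated to type 1a, the nuclear form, read 209.9 and 180.5 (1.83-fold lower after normalization, log2 ratio -0.87). MUTYH, which removes adenine from a pair with 8-oxoguanine, read 356.3 and 609.5 at its brightest probe, 1.67-fold higher (log2 ratio 0.74). Another MUTYH probe, close to background, read 159.4 and 177.3 (log2 ratio 0.18), and the third was detected on neither array. Both detected MUTYH probes were higher, and both OGG1 probes lower, in the radiation-adapted sample. Scaling mattered for MUTYH: without scaling between the arrays its log2 ratio was 1.04, past the 2-fold line. In that setting 18.3% of all detected genes were at least 2-fold higher, and their median was 0.23. Relative to that median MUTYH stood at 0.81, short of 2-fold.

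**Figure D2:**
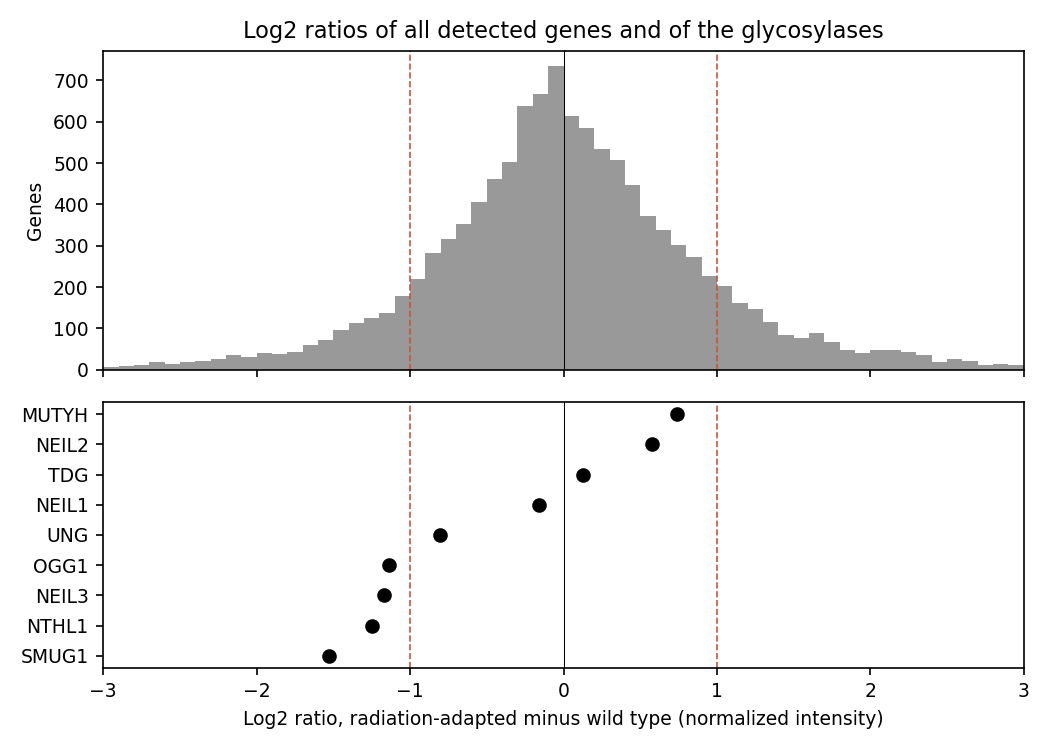
Log2 ratios (normalized intensity, radiation-adapted over wild type) of all detected genes as a histogram in bins of 0.1 (top) and of the 9 detected glycosylases as points (bottom), on 1 horizontal axis drawn from -3 to 3. Dashed lines mark 2-fold. SMUG1, NTHL1, NEIL3 and OGG1 lie left of the lower line, and MUTYH at 0.74 is the highest of the 9.

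Among the enzymes for oxidized pyrimidines, NTHL1 and NEIL3 were lower and NEIL2 was higher. NTHL1, the homologue of bacterial endonuclease III that excises thymine glycol, read 1009.8 units in the wild type and 550.2 in the radiation-adapted cells. After normalization NTHL1 was 2.37-fold lower (log2 levels 9.88 and 8.63), and 6.93% of detected genes were as low or lower. NTHL1, NEIL1 and NEIL2 each have 1 probe on the array, so their ratios could not be compared with those of another probe. NEIL3 is an enzyme of single-stranded DNA that also unhooks interstrand crosslinks and is found mainly in dividing cells. It read 401.5 and 273.6 at its detected probe, and was 2.26-fold lower after normalization. Its other probe, annotated to the same transcript, read 122.6 and 135.0 and was detected on neither array, so the ratio of NEIL3 rests on 1 probe. NEIL2, which acts in bubbles and transcribed DNA, read 344.1 and 537.8, 1.49-fold higher (log2 ratio 0.58). NEIL1, which acts ahead of replication forks, read 161.3 and 165.3, with detection p-values of 0.00779 and 0.0039, and lay so near background that its log2 ratio of -0.16 turned to 0.06 under median scaling and 0.13 without scaling.

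MPG, also called AAG, excises alkylated purines and hypoxanthine, and was not well above background on either array at any of its 3 probes. They read 153.4, 133.0 and 120.6 units in the wild type and 142.3, 126.7 and 150.5 in the radiation-adapted cells. No fold is given for it. At a looser detection threshold of 0.05 MPG was counted as detected. The number of glycosylases at least 2-fold lower was still 4, beside 9.96% of all genes detected by that rule.

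The counts depended on processing. SMUG1 and NTHL1 were at least 2-fold lower under the main setting and all 9 alternatives, with log2 ratios from -1.53 to -1.30 for SMUG1 and from -1.25 to -1.04 for NTHL1. NEIL3 and OGG1 were past 2-fold under 7 of the 10 settings each and between -0.76 and -0.92 under the others, which were no background correction, median scaling and no scaling. Median scaling moved the median of all genes to 0.16 and no scaling moved it to 0.23. Relative to those medians NEIL3 stood at -1.07, OGG1 at -1.06, UNG at -1.01 and MUTYH at 0.81 under both. By that measure UNG would also pass 2-fold and MUTYH would not. The share of all genes past 2-fold by that measure is not given here. Of all genes past 2-fold, 54.6% were higher under the main setting, 67.0% after median scaling and 71.7% without scaling. In the authors' processed table the same 4 genes were past 2-fold, with log2 ratios of -1.18 for NEIL3 and -1.15 for OGG1 after an offset of 16 was added.

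**Figure D3:**
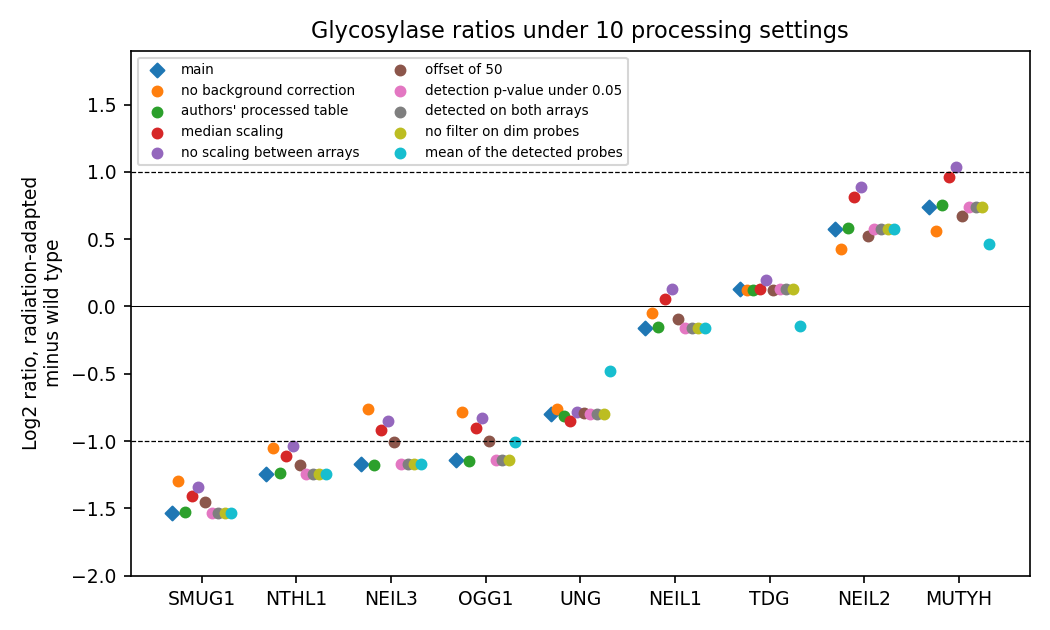
Log2 ratio (radiation-adapted against wild type) of each detected glycosylase under 10 processing settings, 1 colour per setting and a diamond for the main one, with dashed lines at 2-fold. SMUG1 and NTHL1 stay below the lower line in every setting shown, and NEIL3 and OGG1 cross it in 3 settings each.

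Each glycosylase was then set beside its neighbours, taken as the 10 nearest detected genes on each side of it in RefSeq order. Of the 20 neighbours of OGG1 on chromosome 3, 18 lay below 0 and 8 were at least 2-fold lower, beside 50.6% and 10.3% of all genes. The median log2 ratio of these neighbours was -0.79. The ratio of OGG1 minus that median was -0.35, and 8 of its neighbours were lower than it. The neighbours of SMUG1 on chromosome 12 had a median of -0.51 with 2 at least 2-fold lower, and those of NTHL1 on chromosome 16 a median of -0.28 with 3. NEIL3 stood among neighbours with a median of -0.13 on chromosome 4. Of 20 neighbours each, 16 lay below 0 for SMUG1, 13 for NTHL1 and 11 for NEIL3. Minus their neighbours' medians, the ratios of SMUG1, NTHL1 and NEIL3 were -1.02, -0.96 and -1.04. MUTYH on chromosome 1 was higher than 19 of its 20 neighbours, whose median was -0.12. The part that a shared shift of neighbours plays in the ratio of OGG1, or of any other glycosylase, was not tested.

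SMUG1, TDG and UNG all lie on chromosome 12 and differed from each other in ratio and in surroundings. Of the 20 neighbours of TDG, 16 lay below 0, 5 were at least 2-fold lower and 4 higher, with a median of -0.36. Of the 20 neighbours of UNG, 10 lay below 0, with a median of 0.07 and values from -1.33 to 2.16. The lowest of the UNG neighbours was ALKBH2, the gene next to UNG in the RefSeq order of protein-coding genes, which encodes a dioxygenase that reverses DNA alkylation. ALKBH2 read 1928.7 units in the wild type and 895.9 in the radiation-adapted cells, and was 2.52-fold lower after normalization. The neighbours of NEIL1 and NEIL2 had medians of 0.09 each. For MPG, close to the end of chromosome 16, 13 neighbours were found, with a median of -0.29.

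**Figure D4:**
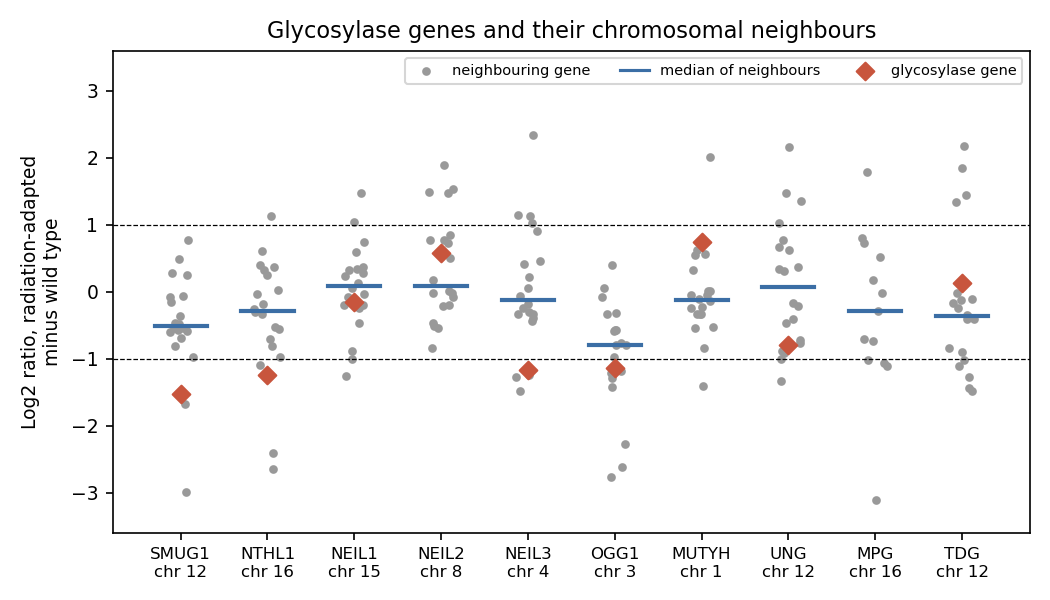
Log2 ratio (radiation-adapted against wild type) of each glycosylase (red diamond) and of up to 20 neighbouring detected genes on its chromosome (grey points, spread sideways for legibility), with the median of the neighbours as a blue bar and dashed lines at 2-fold. The OGG1 neighbours centre on -0.79, and MUTYH stands above 19 of its 20 neighbours; MPG has no diamond because it was not detected.

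The rest of the pathway went both ways, with 8 genes below 0 and 10 above. Of 20 other base excision repair genes listed, 18 were detected. Past 2-fold were 4 higher and 1 lower (median log2 ratio 0.16), beside 12.4% and 10.3% of all genes. The highest was MBD4, itself a glycosylase, which like TDG removes thymine or uracil mispaired with guanine in CpG sites. MBD4 read 366.5 units in the wild type and 1138.0 in the radiation-adapted cells, 3.44-fold higher at its single detected probe. RPA1, the large subunit of the single-strand binding protein, was 2.36-fold higher at its brightest probe, with a log2 ratio of 0.53 at the lowest of its 3 probes.

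LIG1, the replicative ligase of long-patch repair, was 2.06-fold higher, and FEN1, the flap nuclease of the same branch, was 1.80-fold higher. TDP1, which clears blocked 3′ ends, was 2.04-fold higher at its brighter probe, while its other probe had a log2 ratio of -0.60. PCNA, the sliding clamp, had log2 ratios of 0.55 and -0.40 at its probes. Of the enzymes that follow a glycosylase in short-patch repair, POLB had a log2 ratio of -0.03 and XRCC1 of -0.17. APEX1 had log2 ratios of -0.48 and -0.67 at its probes, and LIG3 of -0.49 and -0.80. Of the strand break sensors, PARP1 had a log2 ratio of 0.58, and PARP2 had ratios of -0.53 at its brighter probe and -1.02 at the other. HMGB1, a chromatin protein that stimulates long-patch repair, was 2.04-fold lower, though HMGB1 and TDG have related copies in the genome and their probes were not checked for shared sequence. APLF was not detected.

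**Figure D5:**
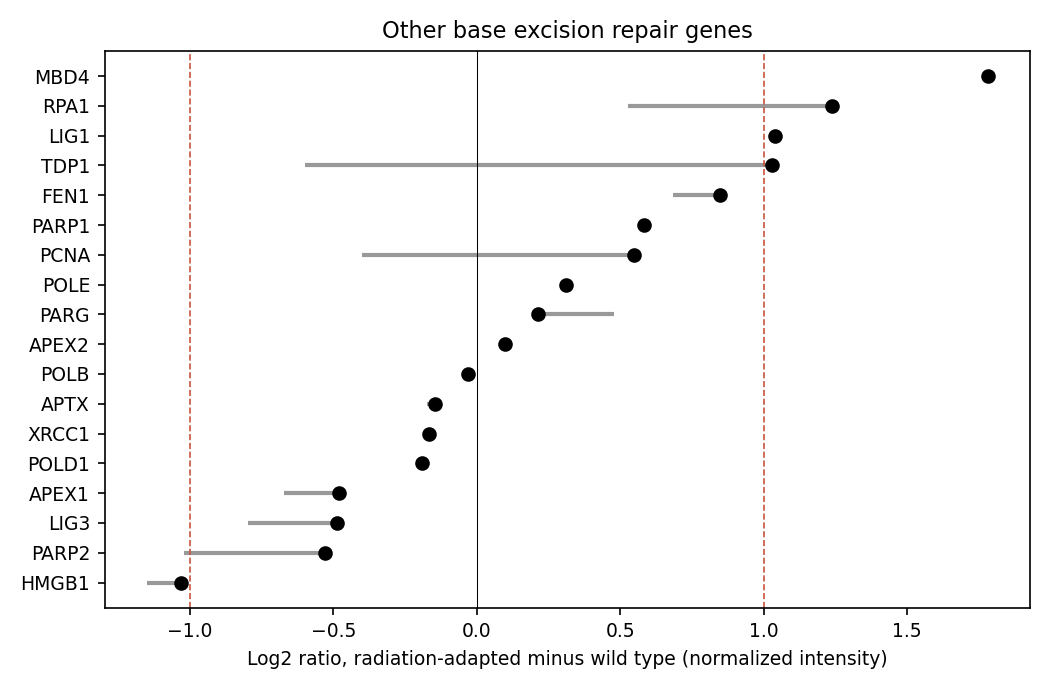
Log2 ratio (normalized intensity, radiation-adapted over wild type) of the 18 detected genes among 20 other base excision repair genes. Points are the brightest detected probe, grey bars run from the lowest to the highest detected probe of the gene, and dashed lines mark 2-fold; MBD4 is highest at 1.78 and HMGB1 lowest at -1.03.

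Genes that work beside the glycosylases were compared in the same way. Of 6 detected genes that clean the nucleotide pool, 1 was at least 2-fold lower and 0 higher, with a median log2 ratio of -0.60. NUDT18, a hydrolase of oxidized guanine diphosphates, was 2.63-fold lower. DUT, the dUTPase that keeps uracil out of DNA, was 1.88-fold lower at its brightest probe, with a log2 ratio of -0.03 at another. NUDT5 and DCTPP1 had the highest log2 ratios, 0.07 and 0.00. NUDT1, the 8-oxo-dGTPase also known as MTH1, read 2484.9 and 1990.8 (log2 ratio -0.36).

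Of 7 detected deaminase, TET and GADD45 genes, GADD45A was 2.34-fold higher and APOBEC3C at least 4.98-fold lower, and the median was -0.01. GADD45B had a log2 ratio of 0.63 and TET1 of -0.82 at its brightest probe. Of 5 genes that reverse alkylation or assist in it, ALKBH2 was the 1 past 2-fold, with ALKBH3 at -0.54, MGMT at 0.06 and ASCC3 at 0.43. Of 15 nucleotide excision repair genes, 1 was lower and 1 higher than 2-fold, beside 10.3% and 12.4% of all genes. Below 0 lay 11 of the 15 (median -0.59), beside 50.6% of all genes. The list ran from ERCC5 (2.56-fold lower) and GTF2H4 (1.99-fold lower) to ERCC3 (1.38-fold higher) and RAD23B (2.03-fold higher). Of 5 mismatch repair genes, MSH6 and MSH3 were both 2.39-fold higher, although another MSH3 probe had a log2 ratio of -0.65. PMS2 and EXO1 were lowest, at -0.65 and -0.35.

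Genes of dividing cells, among which NEIL3 and UNG are usually counted, had list medians above 0. Of 17 detected S phase genes, 15 lay above 0 (median 0.58). At least 2-fold higher were 4 and lower 0, beside 12.4% and 10.3% of all genes. The list ran from SLBP at -0.58 and E2F1 at -0.22 to CCNE1 (2.66-fold higher) and CHAF1A (3.37-fold higher). Of 18 G2 and M phase genes, MKI67 and CENPF were 4.21-fold and 4.06-fold higher, PLK1 and AURKA had log2 ratios of -0.97 and -0.64, and the median was 0.21. In the wild type CCNE1, CHAF1A and MKI67 read 169.7, 170.9 and 180.7 units, near background, and their folds were not checked under other settings. Under the main setting NEIL3 at -1.17 lay below every gene of both lists, and UNG at -0.80 below all but PLK1. Without background correction NEIL3 was at -0.76, and the 2 lists were not computed in that setting. The part of cell division in these ratios was not tested.

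The median bead signal over all probes, most of them not detected, was 140.3 units (wild type) and 142.4 units (radiation-adapted), and 34.3% and 37.4% of probes were detected. Over detected genes, without scaling, the arrays differed by a median log2 ratio of 0.23. Of 9 Ewing sarcoma markers named on the array, 9 were detected on both arrays, from STEAP1 (at the 2-fold line at its brightest probe, and with a log2 ratio of -1.17 at the lowest of its 3) and CD99 (1.86-fold lower) to NKX2-2 (3.40-fold higher) and PAPPA (11.1-fold higher), with 5 at least 2-fold higher and 1, STEAP1, at least 2-fold lower. Of 5 endothelial markers 0 were detected. Of 7 epithelial markers KRT8 alone was detected, at least 4.40-fold lower. Of 7 detected fibroblast markers, 2 were at least 2-fold higher and 3 lower (median -0.78), from DCN (at least 11.6-fold lower) and LUM (at least 5.66-fold lower) to COL1A1 (7.92-fold higher) and THY1 (at least 27.8-fold higher). Of 6 detected leukocyte markers 4 were lower and 1 higher (median -1.33), with ITGB2 20.3-fold and CORO1A at least 2.71-fold lower, CD14 at a bound of -0.17 and CD68 3.44-fold higher at its brighter probe and at -2.07 at the other. PTPRC and CD3E were not detected. The summed signal of the leukocyte markers was 11619 units in the wild type and 1971 in the radiation-adapted cells, of which ITGB2 alone made 10563.9 and 641.7. The other 5 detected leukocyte markers summed to 1055 and 1329 units, and the fibroblast markers to 1759 and 3044, all without background subtracted. The part of these markers in the glycosylase ratios was not tested.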

How the data were processed

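Per the labels' protocols, RNA was extracted with Trizol and labelled with a biotin amplification kit. The deposited table holds, per the file headers, a mean bead signal (linear intensity, with no background subtracted and no scaling, as the values show) and a detection p-value for each of 47323 probes. The authors also deposited processed linear intensity values; that table reaches below 0 (lowest -28.6) and has a median of 10.6 in both columns. Neither table's making is described in the sources used here. Signals were corrected by the neqc method of limma 3.58.1 (R 4.3.3), with the negative control level inferred from detection p-values and an offset of 16. The corrected signals were then quantile-normalized and converted to log2. The offset pulls the ratios of dim probes towards 0. The steps were tested on simulated data, with known ratios given to a small set of brighter probes, as many up as down. That simulation held no shift between arrays and changed no dim probes, so it does not bear on scaling or on dim probes.

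The platform annotation named 1 gene for 30113 probes, several for 8 (left out) and none here for 17202; gene numbers of 30074 matched RefSeq (GRCh38.p14). Each gene took its brightest detected probe. Where 1 array detected it, the dim value was the higher of its own and the lowest detected signal of that array (log2 5.60 wild type, 5.36 radiation-adapted), and the ratio is printed as "at least". With 1 array per group no test was possible, and the number of arrays limits the precision. Genes were called by a log2 ratio of at least 1 in size. The named genes are all 10 glycosylases with every probe, the members of the other base excision repair list past 2-fold, and the 2 highest and 2 lowest of each list; others were named after their values were seen. The members and lists were chosen with earlier results of these data known. Alternatives changed background correction, scaling, offset, detection filter or probe choice.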

Additional observations from a re-analysis of the deposited data

How the results depend on the processing

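The count of 4 glycosylases at least 2-fold lower became 2 (SMUG1 and NTHL1) without background correction, with median scaling and without scaling, and was 4 under the other 6 alternatives. The count at least 2-fold higher went from 0 to 1 (MUTYH) without scaling. In that setting 18.3% of all genes were at least 2-fold higher, against 12.4% under the main setting. The median log2 ratio of the glycosylases stayed between -0.85 and -0.48. Of the 18 other base excision repair genes detected, the 5 past 2-fold became 2 without background correction, 3 with an offset of 50 and 3 with the mean of the detected probes. The shares of all genes at least 2-fold lower and higher moved as well. In those settings they were 4.88% and 6.04%, 7.65% and 9.25%, and 10.1% and 11.2%, against 10.3% and 12.4%. NEIL1 was above 0 with either change of scaling and TDG was at -0.14 with the mean of its probes. Of all genes, 4.88% were at least 2-fold lower without background correction, 8.13% with median scaling and 7.22% without scaling, against 10.3%. No paired analysis was possible because each group has 1 array, and none could be left out. The cause of these moves was not tested. Probes near background, such as those of NEIL1, UNG2 and MPG, limit what can be read.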
